A study of Saccharomyces cerevisiae with 8 samples.

Results

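After 2 h in TFM, cells of the yeast Saccharomyces cerevisiae differed from cells at time zero in few genes by the test used here. CWP1, STL1 and FMP45, which code for a cell wall protein, a glycerol importer and a membrane protein, were 2.98-fold to 3.88-fold lower. ADE17 of purine synthesis and SPO20 of sporulation were also lower, and ECM13 was higher. These 6 calls depended on the processing. None held after quantile normalisation between arrays or with the replicate number as a block, though the differences kept their direction. In 2 large groups no member passed but many lay on one side: 76 of 131 measured ribosome biogenesis genes (58.0%) lay above both controls, against 21.1% of all genes, and 89 of 127 measured ribosomal protein genes (70.1%) lay below both, against 31.5%. The comparison consists of 2 samples taken after 2 h of TFM (replicates 1 and 2) and 2 controls (replicates 1 and 2), chosen by their titles. These are 4 of the 8 arrays of a time series, and 5449 annotated genes were tested, each through its brightest probe set.

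All cultures were wild type by their labels, of strain BY4741, a haploid laboratory strain of mating type a that lacks URA3, LEU2 and MET17 and carries a deletion in HIS3. They were grown at 30 °C to saturation in YPD, a rich medium with glucose. Treated cultures received 0.05 mM TFM, the usual short name of a nitrophenol used against lampreys, and were sampled after 1, 2 or 4 h. The controls are labelled as untreated at 0 min and, in another label, as exposed to 2% isopropanol, the solvent, which all cultures are taken to share. No solvent control at 2 h was among the samples, so exposure to TFM and time spent in the flask cannot be told apart. The labels do not say whether replicates came from separate cultures, so the p-values reflect the spread among these 4 arrays and the other samples fitted, which may be technical.

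TFM is known as an uncoupler: a lipid-soluble weak acid that carries protons across the inner mitochondrial membrane, so that respiration runs without making ATP. In yeast, weak acids also lower the pH of the cytosol, which the plasma membrane proton pump and acid exporters counter. Saturated cultures have used up glucose and live on ethanol and stores. Their genes for ribosome production are low and their genes for respiration and stress resistance are high.

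Levels are deposited log2 array values, so a difference of 1 is a 2-fold difference, and levels of different genes are not comparable. A gene is called dim where its mean over the samples was under 10.02, the 25th percentile of all probe sets. Beside its value, each difference carries the standard error (SE) of limma, a linear model with a spread pooled across genes. The model takes a gene's spread to be equal in all groups, so an SE can be too small where the controls differ widely. A gene passed at an adjusted p under 0.05 after the Benjamini-Hochberg correction over all genes. The array cannot tell fewer expressing cells from less RNA per cell, and its normalisation to a shared distribution would hide a change in total mRNA.

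The strain's markers were checked on the 4 arrays of the comparison. Probe sets for URA3 (3.72 to 4.10), MET17 (4.43 to 4.76) and LEU2 (5.69 to 6.17) were among the lowest read. HIS3 read 12.05 to 12.18. Its deletion leaves part of the gene, so that probe set checks nothing. All 7 genes specific to a cells, from STE6 (lowest 10.21) to MFA2 (highest 12.95), stood above the dim threshold. Of 4 genes specific to alpha cells, MF(ALPHA)1, MF(ALPHA)2 and STE3 were dim and SAG1 was not (11.52 to 11.64).

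The arrays also differed in measures outside the genes tested. Over 17 ribosomal RNA probe sets the median stood at 9.76 and 9.97 in the controls, then 11.43 and 13.03 after 2 h, and all 17 lay above both controls at 2 h. The part of this in any difference below was not tested. The mean excess of 3' over 5' probe sets was taken across 10 pairs of control probe sets. It was 1.55 (log2) in control replicate 1, 1.25 in control replicate 2, and 1.27 and 1.30 at 2 h. Control replicate 1 therefore stood apart from the other 3 arrays in that measure of RNA integrity. ACT1, SRB4 and SPT15 each have more than 1 pair, so these transcripts weigh more in the mean. The root mean square SD between replicates was 0.160 in the controls and 0.0850 at 2 h.

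At 2 h against the controls, limma called 1 gene higher (0.0184% of the 5449 tested) and 5 lower (0.0918%). Before correction, 224 genes (4.11%) were higher and 447 (8.2%) lower at p under 0.05. Both 2 h samples lay above both controls in 1151 genes (21.1%) and below both in 1719 (31.5%), so the groups did not overlap in 52.7% of genes. The median difference over all genes was -0.02. A 2-fold difference was reached by 1 gene on the higher side (0.0184%) and 13 on the lower side (0.239%), and in all 14 the groups did not overlap. Of the 13 lower genes 3 were dim. The plot of difference against level shows the others spread below the bulk of the genes.

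**Figure D1:**
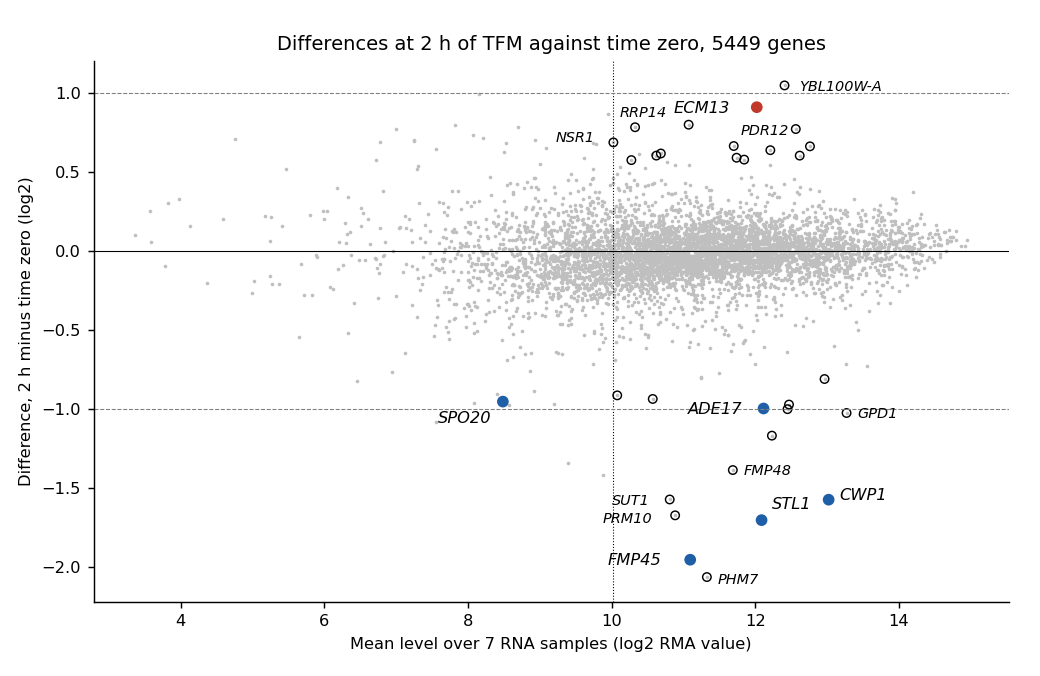
Difference between 2 h of TFM and time zero (log2) against the mean level of each of 5449 genes over 7 RNA samples (log2 RMA value). Filled points passed the test (red higher, blue lower), open circles are the other genes of largest difference above the dim threshold (dotted line), and dashed lines mark 2-fold; ECM13 alone is filled on the higher side and 5 genes are filled on the lower side.

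STL1 codes for the plasma membrane symporter that takes up glycerol together with protons. It read 13.55 and 13.07 in control replicates 1 and 2 and 11.61 and 11.60 in the 2 h samples. Both 2 h samples lay far below both controls. STL1 fell by 1.71 (SE 0.18), or 3.26-fold, with a limma adjusted p of 0.0486. Its SD was 0.339 between controls but 0.0049 between 2 h replicates. The SE assumes equal spread, so it may understate the uncertainty that the controls bring.

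FMP45 codes for a membrane protein of the eisosome, the set of furrow-like patches in the plasma membrane. Its level was 12.60 and 12.04 in the controls against 10.38 and 10.35 at 2 h. The groups stood clearly apart although the controls themselves differed by more than the 2 h samples. FMP45 fell by 1.96 (SE 0.21), or 3.88-fold, with a limma adjusted p of 0.0486. CWP1, a mannoprotein anchored in the cell wall, went from 14.10 and 13.71 in the controls to 12.33 and 12.32. That fall of 1.58 (SE 0.16), or 2.98-fold, had a limma adjusted p of 0.0486. Control SDs were 0.391 for FMP45 and 0.276 for CWP1, far above their 2 h SDs of 0.0228 and 0.0046. The limit given for the SE of STL1 therefore holds for both genes.

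ADE17 codes for an enzyme of the last steps of purine synthesis, shared with its paralog ADE16. The controls read 12.66 and 12.63 and the 2 h samples 11.66 and 11.63, so the controls were closer to each other here than for the membrane and wall genes. The decrease was 2.00-fold, at -1.0 (SE 0.08), with a limma adjusted p of 0.0473. SPO20, which codes for a membrane fusion protein of the forming spore, was dim. Its controls read 8.97 and 8.92 and its 2 h samples 8.0 and 7.97, a difference of -0.96 (SE 0.09) and a limma adjusted p of 0.0473.

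ECM13, a gene of unknown function, was the gene that rose. It read 11.47 and 11.64 in the controls, compared with 12.47 and 12.45 at 2 h. Both 2 h samples lay above both controls, the difference was 0.91 (SE 0.08), or 1.88-fold, and the limma adjusted p was 0.0473. At 1 h it already stood at 12.37 and 12.37, and at 4 h it stood at 11.39, near the controls.

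The time courses of the 6 genes were not alike. STL1 and FMP45 had reached 11.56 and 11.90, and 10.47 and 10.88, by 1 h, and their differences between 2 h and 1 h, -0.13 (SE 0.18) and -0.31 (SE 0.21), did not pass. ADE17 still read 12.53 and 12.36 at 1 h, and SPO20 8.82 and 8.65. ADE17 fell by 0.80 (SE 0.08, adjusted p = 0.0233) and SPO20 by 0.75 (SE 0.09, adjusted p = 0.0294) between 1 h and 2 h in limma. The plot of levels by sample shows the first pair down at 1 h and the second pair down mainly at 2 h.

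**Figure D2:**
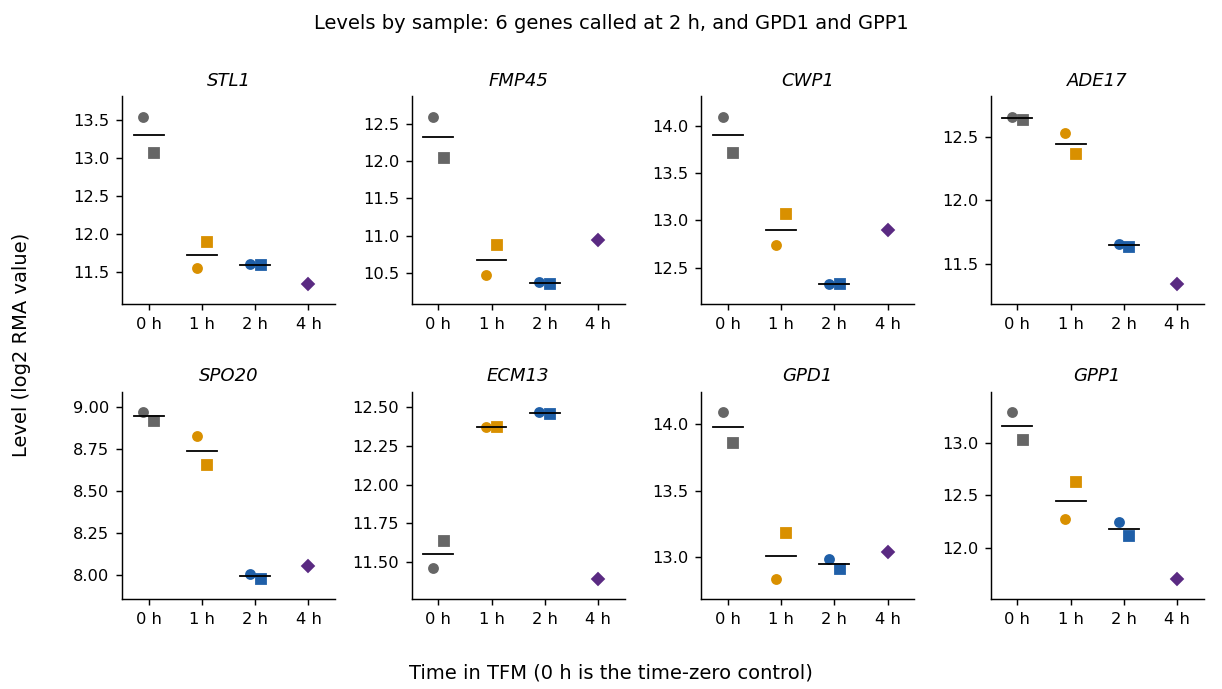
Levels (log2 RMA value) against time in TFM of the 6 genes that passed at 2 h, and of GPD1 and GPP1; circles are replicate 1, squares replicate 2, diamonds the mean of 2 technical arrays of the single 4 h sample, and lines the group means. STL1, FMP45, CWP1, GPD1 and GPP1 were lower at 1 h, ADE17 and SPO20 read lower mainly from 2 h, and ECM13 was high at 1 h and 2 h.

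The calls changed when a library was left out, while the differences kept their direction. Without control replicate 1 none of the 6 passed: adjusted p-values were 0.0769 for STL1, FMP45, CWP1 and ECM13, 0.0771 for ADE17 and 0.101 for SPO20, against a range of 0.00427 to 0.472 over the alternatives tried. In their place SPS2 and YGR273C passed on the lower side. The differences themselves were -1.47 for STL1, -1.68 for FMP45, -1.38 for CWP1, -0.99 for ADE17, -0.93 for SPO20 and 0.82 for ECM13 without that control. Without control replicate 2, 1 gene was called higher and 20 lower, and SPO20 was no longer among them. Without 1 of the 2 h replicates, 0 genes passed in a fit that left that group 1 sample. STL1 then stood at -1.71 or -1.70, FMP45 at -1.97 or -1.94, CWP1 at -1.58 or -1.57, ADE17 at -1.01 or -0.99, SPO20 at -0.97 or -0.94 and ECM13 at 0.90 or 0.92.

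GPD1 and GPP1 code for the enzymes that make glycerol from a glycolytic intermediate, a dehydrogenase followed by a phosphatase. GPD1 read 14.09 and 13.86 in the controls, then 12.99 and 12.91 after 2 h, a difference of -1.03 (SE 0.14, limma adjusted p = 0.0786). GPP1 read 13.29 and 13.02 in the controls against 12.25 and 12.12 at 2 h, a difference of -0.97 (SE 0.15, limma adjusted p = 0.0934). In both genes the 2 h samples lay below both controls and the test was missed. GUT2, which works in the other direction as the mitochondrial enzyme of glycerol use, stood at 13.71 and 13.49 in the controls, compared with 13.84 and 13.88 at 2 h.

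Of the 29 measured genes for glycerol and osmotic stress, 11 (37.9%) lay below both controls, against 31.5% of all genes. Above both lay 8 (27.6%), against 21.1%, and the median difference was -0.04. At an unadjusted p under 0.05, 7 (24.1%) were lower, against 8.2% of all genes, and 1 was higher. The list therefore held a few large decreases beside many genes with small differences. GRE2, a stress-induced reductase that is also in the multidrug list, read 12.75 and 11.95 in the controls, then 11.62 and 11.65 after 2 h. Its difference of -0.72 (SE 0.25) was -0.32 without control replicate 1.

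The largest difference of all was that of PHM7, a membrane protein of unknown function, which did not pass. It read 13.19 and 12.15 in the controls against 10.61 and 10.60 at 2 h, a difference of -2.07 (SE 0.31, limma adjusted p = 0.0934). The controls differed from each other far more than the 2 h samples did. PRM10, a predicted membrane protein, read 12.20 and 11.24 in the controls, compared with 10.03 and 10.06 at 2 h. SUT1, a transcription factor known for sterol uptake, read 12.39 and 11.33, and then 10.28 and 10.29.

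FMP48, a predicted protein kinase, had control levels of 12.97 and 12.29 and 2 h levels of 11.23 and 11.26, at -1.39 (SE 0.21, limma adjusted p = 0.0934). PNS1, a relative of choline transporters, had 13.27 and 12.56 in the controls, then 11.79 and 11.70 after 2 h. Its difference was -1.17 (SE 0.23). YHR033W, an uncharacterised gene, stood at -1.0 (SE 0.21). In all of these both 2 h samples lay below both controls and none passed.

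Control replicate 1 read higher than control replicate 2 in each of the 13 genes that were at least 2-fold lower, and in 14 of the 15 lowest genes above the dim threshold. Over all genes that was so in 45.7%. The median gap between the controls was 0.526 in those 15 genes and 0.10 over all genes, while the gap between the 2 h samples was 0.0330 and 0.0608. Without control replicate 1, PHM7 stood at -1.54, PRM10 at -1.20, SUT1 at -1.05, FMP48 at -1.05, PNS1 at -0.82 and YHR033W at -0.74. Without control replicate 2 the same genes stood at -2.59, -2.15, -2.10, -1.73, -1.52 and -1.26, and all but YHR033W passed.

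Stress genes differed by list. Of 33 general stress genes, 14 (42.4%) lay below both controls, against 31.5% of all genes. Above both lay 7 (21.2%), against 21.1%, and the median was -0.03. At an unadjusted p under 0.05, 6 (18.2%) were lower, against 8.2% of all genes. The lowest member of this list was PHM7, described above. CTT1, the cytosolic catalase, read 13.81 and 13.28 in the controls against 12.75 and 12.71 at 2 h, at -0.81 (SE 0.17). Leaving out control replicate 1 put it at -0.55. Leaving out control replicate 2 put it at -1.08, where it passed in limma. MSN4, a transcription factor of the stress response, read 10.82 and 10.86 and then 11.15 and 11.21.

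Among 30 chaperone genes, 12 lay above both controls, a larger share than the 21.1% of all genes. Below both lay 10 (33.3%), against 31.5%, and the median was 0.03. HSP104, the disaggregase, stood at 0.26 (SE 0.09) and SSE1, an exchange factor for Hsp70, at 0.21 (SE 0.08). YDJ1, a co-chaperone, stood at -0.16 (SE 0.14). Of 35 oxidative stress genes 7 lay above and 10 below both controls, near the shares of all genes. OYE2, an NADPH oxidoreductase, and GSH1, the first enzyme of glutathione synthesis, each stood at 0.24. None of the members of these 3 lists passed.

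Eisosome and membrane genes lay below the controls more often than above them, as all genes did. Of 19 measured, 8 (42.1%) lay below both controls, against 31.5% of all genes. Above both lay 4 (21.1%), the same share as in all genes. At an unadjusted p under 0.05, 5 (26.3%) were lower, against 8.2% of all genes. FMP45 was the member that passed. PUN1, a related membrane protein, read 13.92 and 13.52 in the controls, compared with 12.99 and 13.01 at 2 h, a difference of -0.72 (SE 0.14). The arginine permease gene CAN1 lay on the other side, at 0.21 (SE 0.08), and NCE102, a sensor of sphingolipids, at 0.13 (SE 0.09). The list's median of -0.07 became 0.00 without control replicate 1.

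Most cell wall genes did not share the difference of CWP1. Of 44 measured, 15 (34.1%) lay below both controls, against 31.5% of all genes, and 14 (31.8%) above both, against 21.1%. The other 15 overlapped, and the median was 0.02. CHS1, a chitin synthase used for repair, stood at -0.47 (SE 0.15). RLM1, a transcription factor of the wall integrity pathway, stood at 0.22 (SE 0.12), and UTR2, a chitin transglycosylase, which was dim, at 0.43 (SE 0.15). TOS6, a wall protein outside this list, read 11.42 and 11.63 in the controls, then 12.10 and 12.11 after 2 h.

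On the higher side the largest difference above the dim threshold was that of YBL100W-A, which codes for the Gag protein of a Ty retrotransposon. It read 11.44 and 11.84 in the controls against 12.58 and 12.79 at 2 h, at 1.05 (SE 0.27, limma adjusted p = 0.209). A further Ty gene, YBL005W-A, stood at 0.77 (SE 0.18). Ty elements occur in many near-identical copies that share probes, so neither value belongs to 1 gene with certainty. The same holds for YBL111C (0.66, SE 0.19), a helicase-like gene of a chromosome-end repeat, and for YEL076C-A (0.78, SE 0.18), whose probe set is also marked as shared.

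Ribosome biogenesis genes code for the nucleolar machinery that cuts, modifies and assembles ribosomal RNA. Of 131 measured, 76 (58.0%) lay above both controls and 6 below both, against 21.1% and 31.5% of all genes. At an unadjusted p under 0.05, 35 (26.7%) were higher and 0 lower, and none passed after correction. The median was 0.17, and 114 of the 131 had a positive difference, against 2384 of all 5449 genes. Both samples showed it, at 0.18 and 0.19 above the control mean, while the controls themselves stood at -0.06 and 0.06.

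RRP14, a factor of both ribosomal subunits, read 10.47 and 10.39 in the controls, compared with 11.15 and 11.30 at 2 h, a difference of 0.80 (SE 0.20). NSR1, the yeast nucleolin, read 9.43 and 9.46 and then 10.16 and 10.11, at 0.69 (SE 0.09, limma adjusted p = 0.0679). In both genes the 2 h samples lay above both controls without passing. EBP2 (0.60, SE 0.21) and NOP4 (0.57, SE 0.15), which mature the large subunit's RNA, lay on the same side. NOP56 and NOP58, the core proteins of the particles that methylate ribosomal RNA, stood at -0.24 (SE 0.20) and -0.17 (SE 0.09).

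Of these 131 genes 65 were dim. At 1 h the list had stood higher, at 0.37 and 0.51 in the samples. Between 1 h and 2 h, 75 of the 131 (57.3%) lay below both 1 h samples, against 27.1% of all genes, and 11 (8.4%) were called lower, against 2.51%. Over all dim genes the median difference between 2 h and 1 h was -0.12, and its part in these counts was not tested. The list's median at 2 h became 0.12 when control replicate 1 was left out and 0.25 when control replicate 2 was.

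Ribosomal protein genes, whose products make up the ribosome itself, stood on the other side. Of 127 measured, 89 (70.1%) lay below both controls, against 31.5% of all genes, and 5 above both. At an unadjusted p under 0.05, 43 (33.9%) were lower, against 8.2% of all genes, 1 was higher, and none passed after correction. The median was -0.16, at -0.14 and -0.19 in the 2 h samples against -0.03 and 0.03 in the controls. Large-subunit genes (75) and small-subunit genes (52) each had a median of -0.16.

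RPS0A, a protein of the small subunit, held 12.04 in both controls, 11.97 and 12.04 at 1 h, then stood at 11.43 and 11.38 at 2 h. Its difference from the controls was -0.64 (SE 0.07, limma adjusted p = 0.0679), and it fell by 0.60 (SE 0.07) between 1 h and 2 h, with a limma adjusted p of 0.0294. RPL8A of the large subunit stood at -0.61 (SE 0.12) and RPL36A at 0.24 (SE 0.07). Many of these genes exist as near-identical pairs whose probes can share transcripts, so single members are uncertain. The 4 h sample stood further down, at a median of -0.35.

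Genes for the RNA polymerases that transcribe ribosomal and transfer RNA showed neither shift. Of 36, 9 lay above both controls and 9 below both, with a median of -0.02. The share above was slightly larger than the 21.1% of all genes, and the share below smaller than the 31.5%. RPA135, the second largest subunit of RNA polymerase I, and RPC37 of RNA polymerase III each stood at 0.26. Of 73 mitochondrial ribosomal proteins, 32 (43.8%) lay below both controls, against 31.5% of all genes, and 4 above, with a median of -0.06. MRPL20 (-0.31, SE 0.07) and MRP10 (-0.27, SE 0.09) stood lowest.

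**Figure D3:**
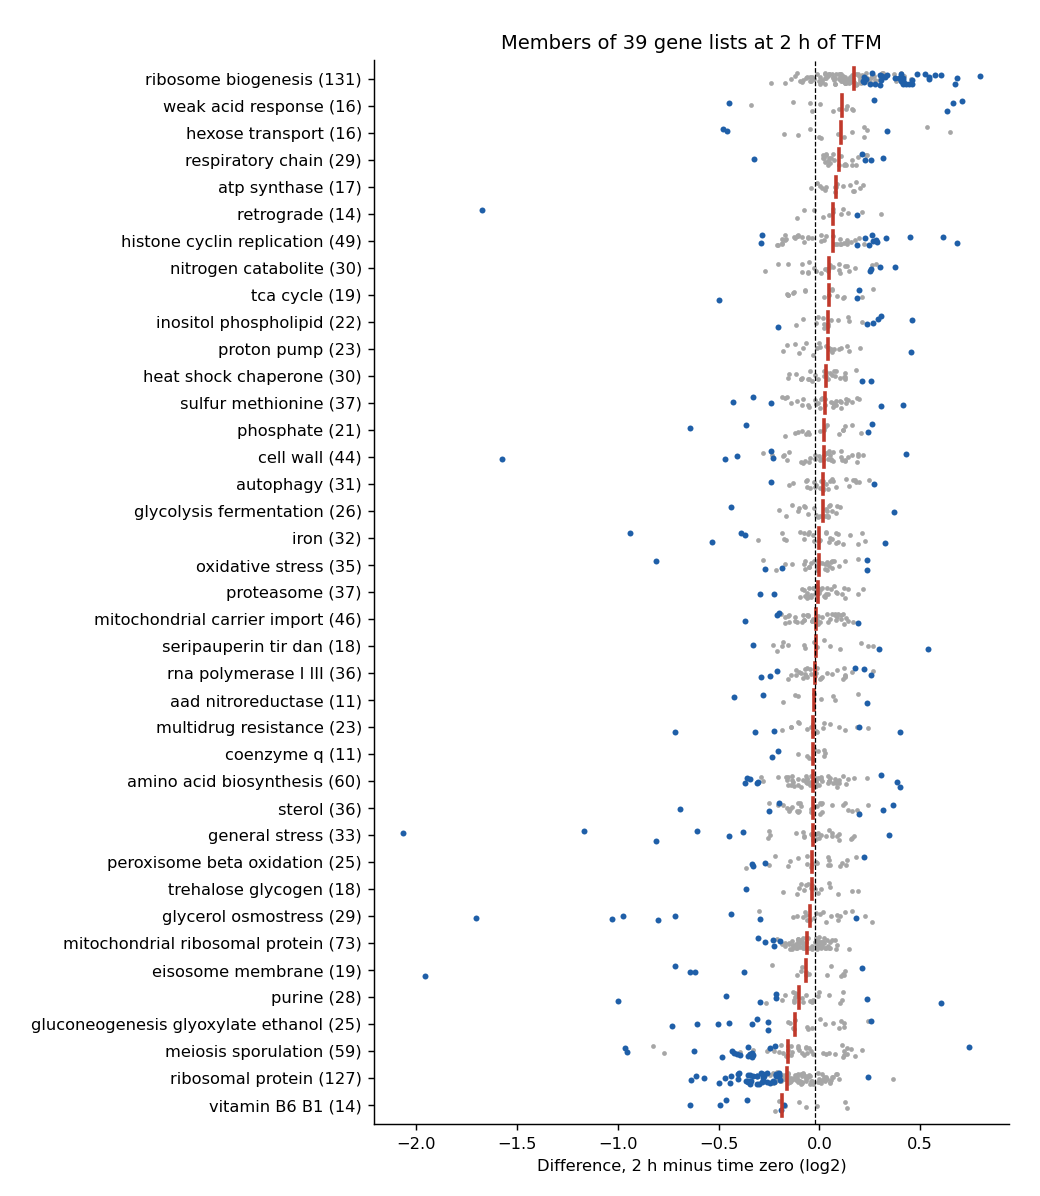
Difference between 2 h of TFM and time zero (log2) of every measured member of 39 gene lists, ordered by median; the number measured is in brackets, blue points had an unadjusted p under 0.05, red bars are list medians and the dashed line is the median of all genes. Ribosome biogenesis (median 0.17) lies to the right, ribosomal protein (-0.16) and vitamin B6 and B1 (-0.19) to the left, and most other medians lie within 0.1 of 0.

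Genes of the respiratory chain had small differences, mostly above 0. Of 29 measured, 14 (48.3%) lay above both controls, against 21.1% of all genes, and 1 lay below both. A positive difference was found in 28 of the 29, against 2384 of all 5449 genes. Their median of 0.10 became 0.06 without control replicate 1 and 0.15 without control replicate 2. NDI1, the internal NADH dehydrogenase of yeast mitochondria, read 12.76 and 12.997 in the controls, then 13.21 and 13.18 after 2 h, at 0.32 (SE 0.11). NDE1 and NDE2 code for the external NADH dehydrogenases. They stood on opposite sides, at 0.26 (SE 0.08) and -0.33 (SE 0.12).

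Of 17 ATP synthase genes, 11 (64.7%) lay above both controls, against 21.1% of all genes, 0 lay below, and none was under an unadjusted p of 0.05. The median of 0.08 became 0.05 without control replicate 1 and 0.14 without control replicate 2. ATP18 (0.22, SE 0.10) and ATP17 (0.20, SE 0.10) of the membrane part stood highest. Neither list had a member that passed. The 2 samples at 2 h were not alike: their medians were 0.14 and 0.05 for the respiratory chain and 0.12 and 0.04 for ATP synthase. The 4 h sample stood at -0.15 and -0.20.

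Some genes that feed respiration from ethanol and acetate stood below the controls, and none passed. ADH2, the alcohol dehydrogenase that oxidises ethanol, read 14.31 and 14.28 in the controls against 13.57 and 13.56 at 2 h. Replicates were close and the groups did not overlap, and the difference was -0.73 (SE 0.09, limma adjusted p = 0.0679). ACS1, the acetyl-CoA synthetase of respiring cells, read 13.82 and 13.55 and then 13.12 and 13.03, at -0.61 (SE 0.11). ICL1, the isocitrate lyase of the glyoxylate cycle, stood at -0.51 (SE 0.08).

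In the list of 25 genes for gluconeogenesis, the glyoxylate cycle and ethanol use, 13 (52.0%) lay below both controls, against 31.5% of all genes, and 7 (28%) above, against 21.1%. At an unadjusted p under 0.05, 8 (32.0%) were lower, against 8.2% of all genes, and 1 higher. ADR1, the transcription factor that turns on ADH2, was itself at 0.26 (SE 0.09), and ICL2, an isocitrate lyase-like enzyme of mitochondria, at 0.24 (SE 0.10). The 4 h sample had a list median of -0.37, and ADH2 read 11.52 in it.

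The acetate transporter gene ADY2 also stood below the controls, at -0.45 (SE 0.10). CIT3, a mitochondrial citrate and methylcitrate synthase, stood at -0.50 (SE 0.08, limma adjusted p = 0.103), while IDH1, a subunit of isocitrate dehydrogenase, stood at 0.21 (SE 0.10). Of 19 genes of the TCA cycle 8 (42.1%) lay above both controls, against 21.1% of all genes, and 7 (36.8%) below both, against 31.5%. CIT2, the peroxisomal citrate synthase used as a reporter of mitochondrial dysfunction, read 14.42 and 14.46 in the controls, compared with 14.54 and 14.55 at 2 h, a difference of 0.11 (SE 0.08). In the retrograde list of 14 genes, 8 (57.1%) lay above both controls, against 21.1% of all genes. Below both lay 2 (14.3%), against 31.5%, among them PRM10, which is not known for that pathway.

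Glycolysis and stores moved little. Of 26 genes for glycolysis and fermentation, 8 (30.8%) lay above both controls, against 21.1% of all genes, and 9 (34.6%) below, against 31.5%. PFK27, which makes an activator of glycolysis, stood at 0.37 (SE 0.09) and PDC6, a minor pyruvate decarboxylase, at -0.44 (SE 0.11). Of 18 trehalose and glycogen genes, 4 (22.2%) lay above and 5 (27.8%) below both controls, near the shares of all genes. Set against 1 h, 14 of those 18 (77.8%) lay above both 1 h samples, against 28.6% of all genes, and 0 below. GPH1, the glycogen phosphorylase, read 13.70 on average at 1 h and 14.03 and 14.02 at 2 h.

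Hexose transporters were split. HXT5, a transporter of slow-growing cells, read 13.22 and 12.76 in the controls, then 12.56 and 12.46 after 2 h. HXT1, the low-affinity transporter of glucose-rich cells, was dim and read 9.06 and 8.23 in the controls against 9.45 and 9.15 at 2 h. Its difference of 0.65 (SE 0.28) became 1.07 when control replicate 1 was left out and 0.23 when control replicate 2 was. Peroxisomal genes (25 measured, median -0.04) included PXA1, a fatty acid importer, at -0.36 (SE 0.16) and ANT1, the peroxisomal ATP carrier, at -0.33 (SE 0.08). PXA1 stood at -0.13 without control replicate 1 and at -0.59 without control replicate 2.

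**Figure D4:**
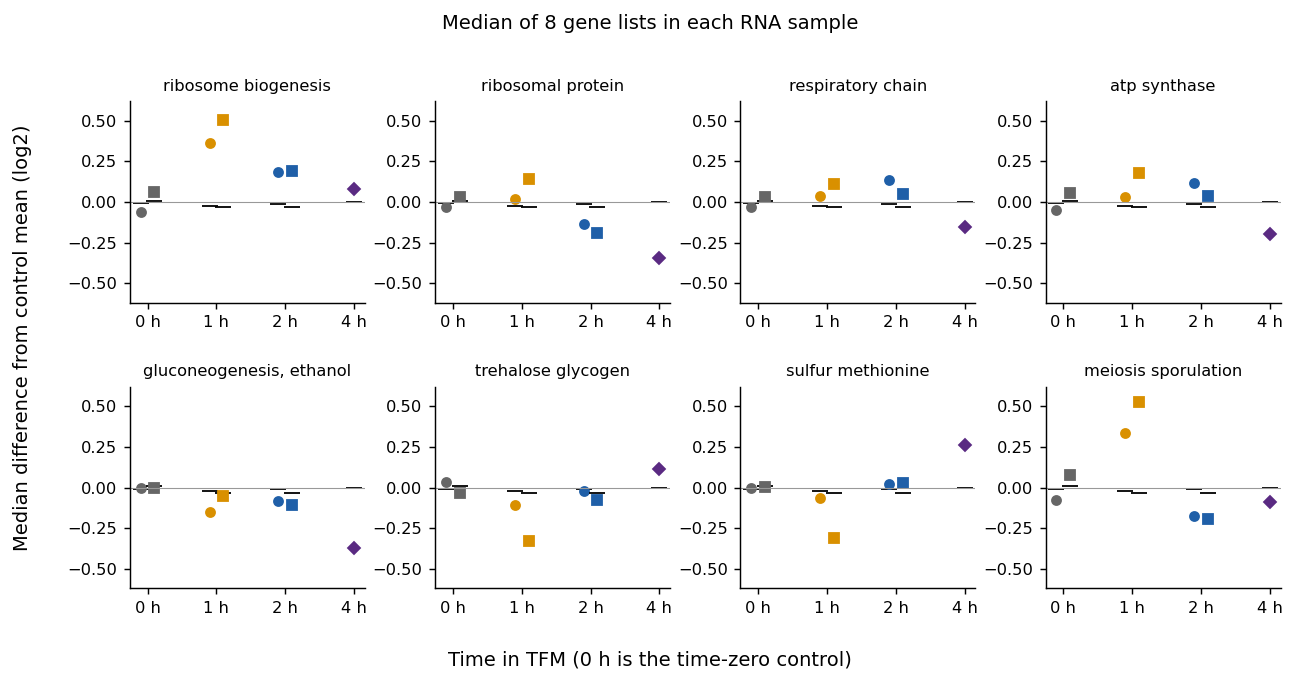
Median difference from the control mean (log2) of 8 gene lists in each RNA sample against time in TFM; circles are replicate 1, squares replicate 2, diamonds the 4 h sample (n = 1), and short black lines the median of all genes in that sample. Ribosome biogenesis was at 0.18 and 0.19 at 2 h, ribosomal protein at -0.14 and -0.19, and meiosis and sporulation at -0.18 and -0.19 after 0.33 and 0.52 at 1 h.

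Genes for acid export and drug resistance held the larger differences in a few members. PDR12, the plasma membrane pump for weak acid anions, read 11.29 and 11.58 in the controls, compared with 12.08 and 12.12 at 2 h. Both 2 h samples lay above both controls, and the difference of 0.66 (SE 0.17) did not pass (limma adjusted p = 0.212). YRO2, a membrane protein induced by acetic acid, stood at 0.64 (SE 0.16), and TPO3, a polyamine and acid exporter at the bottom of the scale, at 0.71 (SE 0.24). TPO3 stood at 1.10 without control replicate 1 and at 0.31 without control replicate 2. Of 16 weak acid genes 9 (56.2%) lay above both controls, against 21.1% of all genes, 2 lay below, none passed, and the median was 0.11.

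The plasma membrane proton pump itself, PMA1, read 13.08 and 13.29 in the controls, then 13.33 and 13.34 after 2 h, at 0.15 (SE 0.09). PMP1, a small protein that regulates it, stood at 0.45 (SE 0.09), with 12.34 and 12.37 in the controls against 12.75 and 12.87 at 2 h. PTK2, a kinase that activates the pump, stood at -0.18 (SE 0.11). Without control replicate 1 PMA1 stood at 0.04 and PTK2 at -0.02, and without control replicate 2 they stood at 0.25 and -0.34. Over 23 genes of proton pumps, 6 (26.1%) lay above both controls, against 21.1% of all genes, and 6 (26.1%) below, against 31.5%. Among 23 multidrug genes, 5 (21.7%) lay above and 8 (34.8%) below, near the shares of all genes. PDR5, the main drug exporter, stood at 0.20 (SE 0.07) and PDR16, a lipid transfer protein, at 0.40 (SE 0.14).

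Enzymes that could act on a nitro group gave small values. HBN1, a putative nitroreductase, stood at -0.28 (SE 0.11), and ADH7, a dim alcohol dehydrogenase, at -0.42 (SE 0.11). Of 11 such genes, including aryl-alcohol dehydrogenases, 3 (27.3%) lay above and 4 (36.4%) below both controls, against 21.1% and 31.5% of all genes. Mitochondrial carriers and import genes (46 measured) had a median of -0.01, with the copper and phosphate carrier PIC2 at 0.19 (SE 0.08) and the import chaperone TIM12 at -0.37 (SE 0.08). In the 11 coenzyme Q genes measured, COQ10 and CAT5 stood lowest, at -0.23 and -0.21 (SE 0.07 in each).

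Of 28 purine genes measured, ADE17 was the one that passed. In the list 14 (50%) lay below both controls, against 31.5% of all genes, and 6 (21.4%) above, against 21.1%. The median was -0.10, and 5 (17.9%) were lower at an unadjusted p under 0.05, against 8.2% of all genes. IMD3, which makes the guanine nucleotide precursor from IMP, read 11.19 and 11.06 in the controls, compared with 10.68 and 10.65 at 2 h, at -0.47 (SE 0.08). FCY2, the permease that imports purine bases, lay on the other side. It read 12.32 and 12.24 in the controls, then 12.87 and 12.89 after 2 h, at 0.60 (SE 0.07, limma adjusted p = 0.0679). HPT1, which salvages those bases into nucleotides, stood at 0.24 (SE 0.09).

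The vitamin B6 and B1 list had a median of -0.19. Of 14 measured genes 9 (64.3%) lay below both controls, against 31.5% of all genes, and 2 above. At an unadjusted p under 0.05, 6 (42.9%) were lower, against 8.2%, and none passed after correction. PHO3, the acid phosphatase that frees thiamine, was dim and stood at -0.64 (SE 0.10). THI4, which makes the thiazole part of thiamine, read 10.86 and 10.62 in the controls against 10.26 and 10.23 at 2 h. PHO5, the main acid phosphatase of the phosphate list, stood at -0.36 (SE 0.08), and PHO84, the high-affinity phosphate importer, at 0.26 (SE 0.09).

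Nitrogen, amino acid and sulfur genes differed little as lists, with medians of 0.05 over 30, -0.03 over 60 and 0.03 over 37 genes. The general amino acid permease gene GAP1 read 12.68 and 12.72 in the controls, compared with 13.06 and 13.10 at 2 h, at 0.38 (SE 0.07). PUT1, the first enzyme of proline use, stood at 0.30 (SE 0.07). ARG1 of arginine synthesis (0.40, SE 0.10) and BAT1, a branched-chain aminotransferase (0.38, SE 0.09), stood highest in the amino acid list. LYS9 (-0.37, SE 0.09) and ILV5 (-0.36, SE 0.10) stood lowest in it. SAH1, which clears the by-product of methylation, stood at 0.41 (SE 0.07), and MET14, of sulfate assimilation, at -0.33 (SE 0.08).

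Iron genes gave a median of 0.00 over 32. FIT1, a wall protein that retains iron carriers, read 11.54 and 10.97 in the controls, then 10.38 and 10.25 after 2 h, at -0.94 (SE 0.18). It stood at -0.65 without control replicate 1 and passed at -1.22 without control replicate 2. AFT2, an iron-sensing transcription factor, stood at 0.33 (SE 0.11).

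Sterol genes were split as well. Of 36, 8 (22.2%) lay above and 12 (33.3%) below both controls, near the 21.1% and 31.5% of all genes. ERG1 (0.32, SE 0.09) and ERG5 (0.36, SE 0.13), enzymes of ergosterol synthesis, stood highest, and MOT3, a repressor of such genes, read 10.72 and 10.37 in the controls against 9.81 and 9.90 at 2 h. Of 22 inositol and phospholipid genes, 11 (50%) lay above both controls, against 21.1% of all genes, and 2 below, and none passed. INO1, which makes inositol from glucose phosphate, stood at 0.46 (SE 0.09), and its activator INO2 at 0.31 (SE 0.10).

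Of 49 genes for histones, cyclins and DNA replication, 23 (46.9%) lay above both controls, against 21.1% of all genes, and 12 below, and 11 (22.4%) were higher at an unadjusted p under 0.05, against 4.11% of all genes. RNR1, the large subunit of ribonucleotide reductase, was dim and read 9.41 and 9.45 in the controls, compared with 10.07 and 10.16 at 2 h, at 0.68 (SE 0.17). POL30, the sliding clamp of DNA polymerase, read 10.11 and 10.35 and then 10.78 and 10.91, at 0.61 (SE 0.12). RFC4, of the complex that loads that clamp, was at -0.29 (SE 0.11), and PRI1, a primase subunit, at -0.28 (SE 0.10). In the 4 h sample POL30 read 9.59 and RNR1 8.66, both below the controls.

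Sporulation genes, which haploid cells do not use, were dim in 50 of 59 cases. At 2 h 29 (49.2%) lay below both controls, against 31.5% of all genes, and 2 above. At an unadjusted p under 0.05, 16 (27.1%) were lower, against 8.2% of all genes. Their median of -0.16 became -0.27 when control replicate 1 was left out and -0.05 when control replicate 2 was. REC102, of meiotic recombination, read 8.81 and 8.28 in the controls, then 7.54 and 7.62 after 2 h. LDS2, a late sporulation gene, lay on the other side, with 8.20 and 8.89 in the controls against 9.17 and 9.41 at 2 h.

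Other lists showed little. The proteasome (37 genes, median -0.01) included its activator RPN4 at -0.29 (SE 0.09). Autophagy genes (31, median 0.02) ran from ATG14 at -0.24 to ATG17 at 0.27. The seripauperin family, cell wall proteins of anaerobic cells, had 18 measured members whose probes are shared among near-identical copies. PAU4 stood at 0.54 (SE 0.17) and PAU2 at -0.33 (SE 0.10) in it.

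The comparison with 1 h shares no control sample, and it had more calls. At 2 h against 1 h, limma called 7 genes higher (0.128%) and 137 lower (2.51%). Both 2 h samples lay above both 1 h samples in 1556 genes (28.6%) and below both in 1479 (27.1%). Of the 137 lower calls 96 were dim, and of the 7 higher calls 0 were. The 545 genes of lowest mean had a median difference of -0.28 between 2 h and 1 h, against 0.01 over all genes. The part of that shift in the lower calls was not tested.

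INO1 had the largest increase. It read 11.27 and 11.42 at 1 h and 12.54 and 12.55 at 2 h, so that it rose by 1.20 (SE 0.09) with a limma adjusted p of 0.0139. The controls stood between, at 12.04 and 12.13, and the 4 h sample stood below all of these, at 10.62. INO1 thus read low, then high, then low over the 4 times.

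PIR3, a cell wall protein, rose by 0.73 (SE 0.11, limma adjusted p = 0.0337) from 11.71 and 11.46 to 12.24 and 12.39. COQ6, a hydroxylase of coenzyme Q synthesis, rose by 0.54 (SE 0.07, limma adjusted p = 0.0336) from 10.49 and 10.49 to 11.05 and 10.996, its control level. CPD1, a phosphodiesterase linked to transfer RNA splicing, rose by 0.51 (SE 0.08, limma adjusted p = 0.0362) but stayed below the controls. Its 2 h samples read 11.20 and 11.23 against 11.64 and 11.54.

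The largest decreases were in dim genes. PFS1, of prospore membrane formation, read 6.31 and 6.69 at 1 h and 4.21 and 4.50 at 2 h, against 4.15 and 4.94 in the controls. ECM11, of the meiotic chromosome axis, read 8.60 and 8.92 and then 6.76 and 6.83, within the span of the controls. RNP1, an RNA-binding protein, read 9.91 and 10.22 and then 8.07 and 8.13. GAT3, a GATA-family protein, read 8.31 and 8.10 and then 6.18 and 6.50. These 4 passed, with differences from -2.15 to -1.86 (limma adjusted p = 0.0294 to 0.0363). The 2 h samples lay within or next to the span of the controls.

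**Figure D5:**
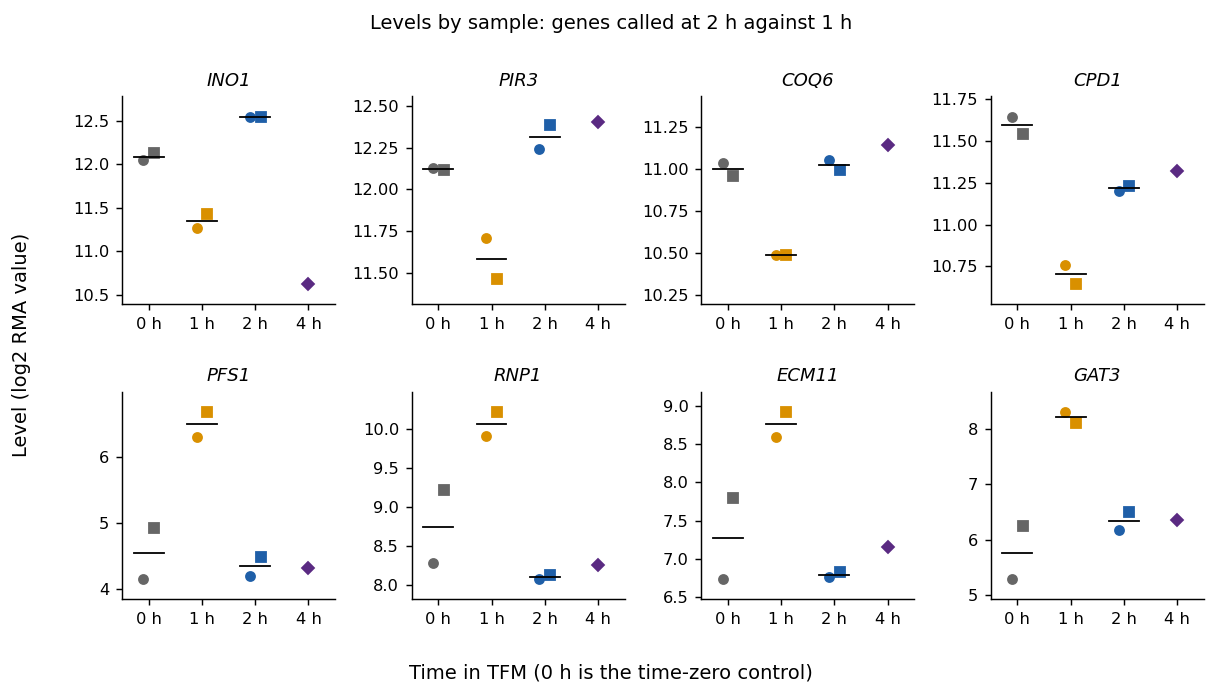
Levels (log2 RMA value) against time in TFM of 8 genes that passed between 1 h and 2 h; circles are replicate 1, squares replicate 2, diamonds the single 4 h sample, and lines the group means. The upper 4 genes read lowest at 1 h, apart from INO1 at 4 h, and the lower 4, all dim, read highest at 1 h and near the controls at 2 h.

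Over lists, 49 of 59 sporulation genes (83.1%) and 97 of 127 ribosomal protein genes (76.4%) lay below both 1 h samples, against 27.1% of all genes. Called lower were 11 (18.6%) and 10 (7.87%) members, against 2.51% of all genes. Of the 59 sporulation genes 50 were dim, and all dim genes had a median of -0.12 between 2 h and 1 h. The part of that shift in these counts was not tested. PAU18 fell by 0.91 (SE 0.12, limma adjusted p = 0.0294) and POL30 by 0.68 (SE 0.12, limma adjusted p = 0.0438). The number of calls moved with the libraries used: without 1 h replicate 1 there were 259 higher and 304 lower, and without 1 h replicate 2 there were 1 and 24. Without 1 of the 2 h replicates, which leaves that group 1 sample, there were 0 and 0, while INO1 stayed at 1.20 with either left out and RPS0A at -0.62 or -0.58.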

How the data were processed

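The deposited values are log2 array levels from 1-colour Affymetrix yeast arrays hybridised with biotin-labelled cRNA. The authors made them with RMA, per the submitters' processing notes, which give no version. RMA corrects background, brings arrays to a shared distribution and summarises each probe set. The log base is judged from the range of the values, and no genome build is named in the sources used here, so no coordinates are printed. The platform's annotation gave 1 gene name to 5498 of 5814 probe sets, several to 0 and none to 316. Symbols of 12 genes were updated from RefSeq. Where a gene had several probe sets (47 genes), the brightest was used. This gave 5449 genes, 1319 of them dim. Probe sets of 117 genes carry a suffix for shared probes.

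The model was fitted with limma (version 3.58.1, R version 4.3.3) by lmFit and eBayes to 7 RNA samples, with 1 coefficient per group. It had 3 residual degrees of freedom and 3.36 from the prior. The 2 arrays of the single 4 h sample are technical and were averaged, and that sample is assumed to vary like the other groups. The Benjamini-Hochberg correction was applied to each comparison separately. The same steps were run on simulated data in which each gene had equal spread in all groups. That run does not cover controls that differ more than the 2 h samples. The number of arrays limits the precision. The members and lists were chosen with earlier results of these data known.

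Named genes are those that passed at 2 h, the 15 highest and 15 lowest above the dim threshold with an unadjusted p under 0.05 and no overlap, the 2 highest and 2 lowest of each list, marker genes, and the 5 highest and 5 lowest that passed against 1 h. List members with the smallest differences are given by count. The 15 alternatives cover the samples fitted, the prior, the scaling, the filter on dim genes, the probe sets, the threshold, the replicate number as a block and each replicate left out.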

Additional observations from a re-analysis of the deposited data

Results flagged for a closer look

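The following genes differed between the 2 h and 1 h samples in limma, so that their distance from time zero was not the same at both times. PFS1 stood at -2.15 (adjusted p = 0.0294), RNP1 at -1.96 (adjusted p = 0.0337), ECM11 at -1.96 (adjusted p = 0.0363), PHO92, a reader of methylated RNA, at -1.96 (adjusted p = 0.0438) and GAT3 at -1.86 (adjusted p = 0.0363), and all 5 were dim. YMR030W-A, an uncharacterised gene, stood at -1.52 (adjusted p = 0.0233). Its controls read 10.09 and 10.51, its 1 h samples 11.002 and 10.80 and its 2 h samples 9.41 and 9.35, so its 2 h samples were below both earlier groups. PAU18 stood at -0.91, ADE17 at -0.80, SPO20 at -0.75, POL30 at -0.68 and RPS0A at -0.60. On the higher side were CPD1 at 0.51, COQ6 at 0.54, PIR3 at 0.73 and INO1 at 1.20.

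Ribosomal RNA probe sets lie outside the genes tested. Their median was 11.43 in 2 h replicate 1 and 13.03 in 2 h replicate 2, against 9.76 and 9.97 in the controls. The 17 probe sets differed by 0.28 to 3.56 from the controls, with a median of 1.82.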

How the results depend on the processing

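The alternatives were followed for part of the named genes. None of the differences followed changed direction under any alternative that could be computed for it. The other named genes were not followed. Leaving out 1 control moved the differences of ATP17, CHS1, GRE2, GUT2, HPT1, HXT1, HXT5, IDH1, LDS2, NDE2, NDI1, PAU2, PMA1, PTK2, PXA1, RFC4, SUT1, TPO3 and YRO2 by over 1.5 times. It also did so for FRE4, HXT8, HXT10, PGM2, RTG1 and TPS2, which were followed but are not described above. At 2 h against the controls the main counts were 1 higher and 5 lower. They were 4 and 11 with only the groups compared, 10 and 33 with a trended prior, 1 and 2 after median centring or with every probe set as its own row, 0 and 0 after quantile normalisation, 7 and 20 with only genes above the dim threshold, and 6 and 20 at a threshold of 0.10. The robust prior kept 1 and 5. Leaving out 1 replicate gave 0 to 4 higher and 0 to 20 lower. At 2 h against 1 h the main counts were 7 and 137. They were 10 and 257 with only the groups compared, 21 and 193 with a trended prior, 50 and 102 after quantile normalisation, 9 and 52 with only genes above the dim threshold, and 85 and 388 at a threshold of 0.10. Leaving out 1 replicate gave 0 to 259 higher and 0 to 304 lower. The cause of these changes was not tested. Of the medians of lists under the alternatives, marker lists included, 223 moved by no more than the SD between the 2 samples at 2 h. The other 121 moved further. The median changed sign in 16 of 39 lists, while it stayed between 0.12 and 0.25 for ribosome biogenesis, -0.21 and -0.13 for ribosomal proteins, and -0.20 and -0.14 for vitamins B6 and B1.

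Groups share replicate numbers in the labels. With the replicate block over control, 1 h and 2 h samples the counts were 0 and 0 against the controls and 20 and 281 against 1 h. The replicate differences correlated across genes at 0.19 between control and 2 h, 0.10 between control and 1 h and 0.03 between 1 h and 2 h. With 2 numbers, the samples share only a number.

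A fit without a 2 h replicate takes the small 2 h spread out of the shared estimate, and 671 genes had an unadjusted p under 0.05 against the controls in the main fit. Whether dim genes are expressed cannot be told from these values.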

Other observations

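Of 218 probe sets with no gene name, 66 lay below both controls at 2 h and 31 above both. Among all genes tested those shares were 31.5% and 21.1%, so the larger count below is not particular to these probe sets. Their median was -0.02. The lowest, 1770587_at, had control levels of 12.36 and 12.17, 1 h levels of 11.19 and 11.26, 2 h levels of 10.62 and 10.42, and 4 h levels of 9.33 and 9.48. Its 2 h difference was -1.74. The next, 1778149_at, had control levels of 11.75 and 11.04 and 2 h levels of 10.11 and 10.03, a difference of -1.32.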
